A study of Rattus norvegicus with 14 samples.

Results

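The comparison set 5 hippocampal libraries of rats given pentylenetetrazole that were rich in fibroblast and red cell transcripts against 5 that were poor in them. The rich side held the libraries PTZ-1, PTZ-2, Q808-1, Q808-2 and Q808-3, and the poor side held PTZ-3, PTZ-4, PTZ-5, Q808-4 and Q808-5. They make up 10 of the 14 libraries of the series, and the other 4 are controls that took no part in the split. The rich side held 2 PTZ and 3 PTZ+Q808 libraries, and the poor side 3 PTZ and 2 PTZ+Q808 libraries. The sides were chosen from the expression values of these same libraries. Every difference between the sides is therefore given as a description, with no p-value, and a count of genes past a threshold serves only to sort them.

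All animals were wild-type Wistar rats weighing 180 to 220 g, and the tissue was hippocampus. Control rats received vehicle, PTZ rats received pentylenetetrazole (PTZ), a blocker of GABA-A receptors that provokes seizures, together with vehicle, and PTZ+Q808 rats received PTZ and Q808, a compound known here only by its code name. The labels name 1 acute chemical model in rats with otherwise normal brains; age, sex, dose and time to sampling are not given in the sources used here. Polyadenylated RNA was captured and sequenced, and each library is described by FPKM, fragments per kilobase of transcript scaled to the mapped fragments of the library, for 22601 genes. The summed FPKM ran from 383126 to 419358 per library, and the Spearman correlation between libraries across genes from 0.98 to 0.988. The relative number of fragments, read from the steps between low FPKM values, was 0.858 to 1.037 on the rich side, 0.93 to 0.986 on the poor side and 0.956 to 1.004 in the controls.

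The meninges are the layered coverings of the brain, made by fibroblasts that lay down collagens and small proteoglycans, carry organic solutes across the arachnoid barrier and secrete retinoic acid, BMP and Wnt signals. Vessels with smooth muscle, and macrophages distinct from microglia, run through these layers and into the perivascular spaces. A sheet of meninges lies along the hippocampal fissure, and red cells remain in the vessels of tissue that was not flushed. In bulk tissue, fewer cells of a type and less RNA per cell cannot be told apart, and that holds for every cell type named below.

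The markers named with the split fitted the labels in part. Col3a1, a chain of the fibrillar collagens, had 20, 13.2, 17.5, 10.7 and 14.2 FPKM in PTZ-1, PTZ-2, Q808-1, Q808-2 and Q808-3, and 3.92, 5.21, 2.32, 2.08 and 4.9 FPKM in PTZ-3, PTZ-4, PTZ-5, Q808-4 and Q808-5. The 4 controls had 3.34 to 4.73 FPKM, so the poor range enclosed the control range and the rich libraries lay above both. Mgp, matrix Gla protein, an inhibitor of calcification, also separated the sides, with 46.5 to 83.3 FPKM in the rich and 27.7 to 32.8 FPKM in the poor libraries. Its control range of 22.4 to 42.8 FPKM enclosed the poor range.

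Both other markers overlapped between the sides. Col1a2, the second chain of type I collagen, had 9.35, 1.09, 7.65, 4.67 and 11.1 FPKM in the rich libraries in the same order, and 0.505, 2.15, 0.256, 0.648 and 0.586 FPKM in the poor ones. PTZ-2 on the rich side was thus below PTZ-4 on the poor side. Dcn, decorin, a proteoglycan that binds collagen fibrils, reached down to 22.4 FPKM in PTZ-2 on the rich side and up to 24.2 FPKM in Q808-5 on the poor side. Over the meningeal fibroblast list of 43 genes, of which 38 were tested, the mean of log2(FPKM + 1) was 3.46 to 4.14 in the rich libraries, 2.5 to 2.79 in the poor libraries and 2.66 to 3.07 in the controls. On that measure the poor libraries sat beside the controls, with overlapping ranges, and the rich libraries stood above both.

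Red cell transcripts divided the libraries in another way. The sum of 5 globin genes (Hba1, Hba2, Hba-a1, Hbb and Hbb-b1) was 2350 to 4450 FPKM in the rich and 703 to 1760 FPKM in the poor libraries. Of the controls, replicates 1 and 2 had 3640 and 2650 FPKM, within the rich range, and replicates 3 and 4 had 1080 and 1230 FPKM, within the poor range. All 4 controls were nevertheless below every rich library on the fibroblast list. High globin and high fibroblast transcripts therefore went together among the 10 exposed libraries, as the split requires, and not among the controls. Within the alpha and within the beta globins the genes are near-identical copies, and how reads were divided among such copies is uncertain.

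**Figure D1:**
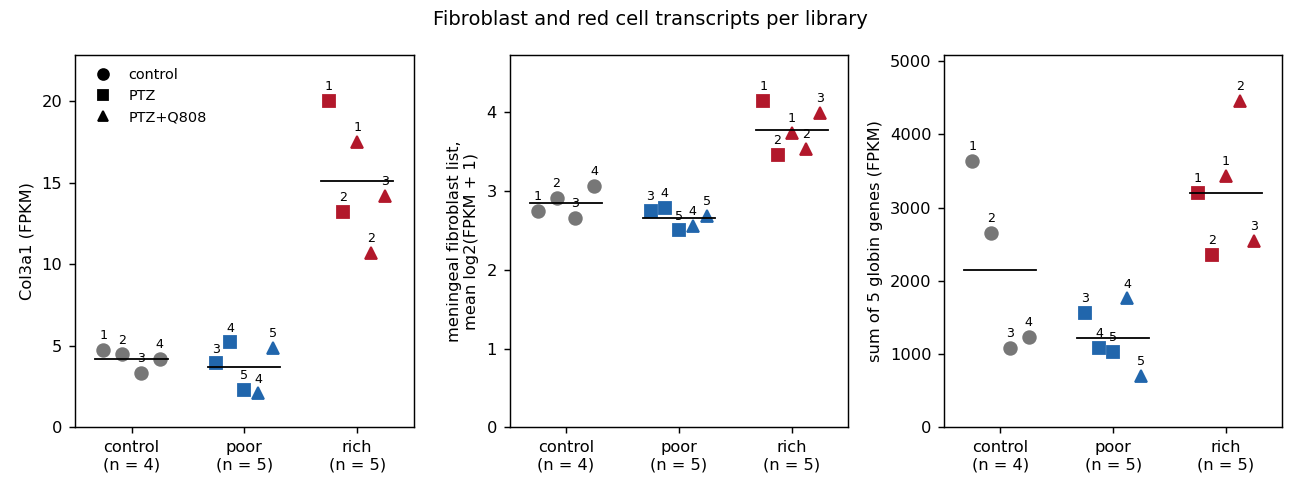
Col3a1 (FPKM), the mean log2(FPKM + 1) of the meningeal fibroblast list, and the sum of 5 globin genes (FPKM) in each library; symbols give the treatment, digits the replicate number and lines the mean of a side. The 5 rich libraries lie above all others for Col3a1 and the fibroblast list, while controls 1 and 2, at 3640 and 2650 FPKM, reach the rich range of the globin sum.

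The split followed the replicate numbers closely. Replicates 1 and 2 were rich and replicates 4 and 5 poor in both treatments, and only replicate 3 fell on different sides, with PTZ-3 poor and Q808-3 rich. The labels tie these numbers to no batch. Over all genes tested, same-numbered libraries of different groups did not deviate together. That measure covers all genes and cannot separate number from side for the fibroblast and red cell genes. Transcripts of the Y chromosome were spread unevenly over the sides. Kdm5d, a histone demethylase gene of the Y chromosome, was at or above 1 FPKM in 4 of 5 rich libraries (not in Q808-3). It also was in 2 of 5 poor libraries (PTZ-5 and Q808-4) and in 2 of 4 controls (replicates 1 and 2). The summed level of 3 Y-linked genes was 36.9 to 58.6 FPKM in these libraries and at most 0.788 FPKM in the others. Libraries with and without Y-linked transcripts were thus both present, and sex is not labelled. The part of this imbalance in the differences below was not tested beyond the fits with a Y-linked term given in the closing section.

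The promoters of 1 fibroblast gene and 2 globin genes are shown because these genes, on 3 chromosomes, stand for the transcripts that set the split. The 300 bases run 5′ to 3′ on the gene's strand, from upstream of the start given by RefSeq (GRCr8) to 50 bases past it. They are Col1a2 at chr4:33518307-33518606 (plus strand), Hba1, an alpha-globin gene that RefSeq lists as Hba-a1, at chr10:15842531-15842830 (minus strand), and Hbb, a beta-globin gene, at chr1:167663672-167663971 (minus strand). Capitals mark the CCAAT box, searched as CCAAT on both strands (ATTGG on the strand shown), and the TATA box, searched as TATAAA on the gene's strand only. The motifs do not overlap each other.
Col1a2: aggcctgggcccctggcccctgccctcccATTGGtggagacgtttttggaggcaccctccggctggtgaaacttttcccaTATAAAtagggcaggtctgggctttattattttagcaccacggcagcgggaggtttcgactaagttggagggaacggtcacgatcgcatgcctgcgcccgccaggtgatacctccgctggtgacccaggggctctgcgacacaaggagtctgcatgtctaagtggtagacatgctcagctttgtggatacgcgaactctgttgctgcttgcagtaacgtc
Hba1: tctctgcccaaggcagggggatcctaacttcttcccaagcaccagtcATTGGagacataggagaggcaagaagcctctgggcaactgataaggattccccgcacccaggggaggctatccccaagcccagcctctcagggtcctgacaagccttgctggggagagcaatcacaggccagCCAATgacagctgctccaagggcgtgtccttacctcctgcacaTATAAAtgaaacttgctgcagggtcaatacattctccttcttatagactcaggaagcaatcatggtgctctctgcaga
Hbb: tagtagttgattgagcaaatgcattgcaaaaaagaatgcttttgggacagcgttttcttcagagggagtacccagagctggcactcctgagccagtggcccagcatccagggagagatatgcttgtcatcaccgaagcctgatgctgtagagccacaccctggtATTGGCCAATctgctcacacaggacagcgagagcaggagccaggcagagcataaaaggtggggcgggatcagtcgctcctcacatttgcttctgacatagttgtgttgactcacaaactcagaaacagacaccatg
Col1a2 held 1 CCAAT and 1 TATAAA, Hba1 held 2 and 1, and Hbb held 2 and 0. Of 33469 promoters of the same length, 37.5% held CCAAT on either strand, 8.8% held TATAAA and 3.5% held both. A match describes the letters of the window only.

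Across the 12744 genes tested, 122 were higher and 2 were lower on the rich side past the threshold (adjusted p under 0.05 by limma with treatment as a covariate). That is 0.957% and 0.0157% of the genes, and nothing is read from either count, because the split was made on these libraries; 851 genes (6.68%) had an unadjusted p under 0.05. All 122 were higher on the rich side within each treatment, against 28.0% of all genes; they were picked by the difference over both, so the choice favours this. In 119 of the 122 every rich library lay above every poor one, against 1.98% of all genes (252 higher; 47 lower, 0.369%), and in 93 every rich library also lay above every control, against 3.79% of all genes. Of the 122, 28 belonged to the fibroblast or red cell lists and 67 to none of the 27 lists described here. A further limit is the filter: 24 of the 122 reached 1 FPKM in fewer than 4 libraries outside the rich side, so they were tested only because they were high there. The same holds for 4 of the 26 collagen chains, 2 of the 14 transporters and 2 of the 22 signal genes tested. Below, a gene counts as higher or lower by the sign of its fitted log2 difference. Lists share members, so their counts are not separate results. Col1a1, Pcolce, Bgn, Slc6a20 and Crabp2, for example, are each on the fibroblast list and on another list. The count of 124 became 62 without PTZ-1, 79 without PTZ-5, 75 without Q808-1 and 69 without Q808-4.

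The differences measured separately in each treatment were weakly alike. Across all 12744 genes the Pearson correlation of the PTZ and PTZ+Q808 differences was 0.348, and it was 0.275 over the 12692 genes outside the fibroblast and red cell lists. Genes are not independent, and the sides were chosen with both treatments in view, so this is a description. The sign was the same in 49.0% of genes, 28.0% being higher in both treatments and 21.0% lower in both. The correlation was thus weak, and the sign was not shared by most genes. Whether genes with larger differences were more alike in the treatments was not tested.

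**Figure D2:**
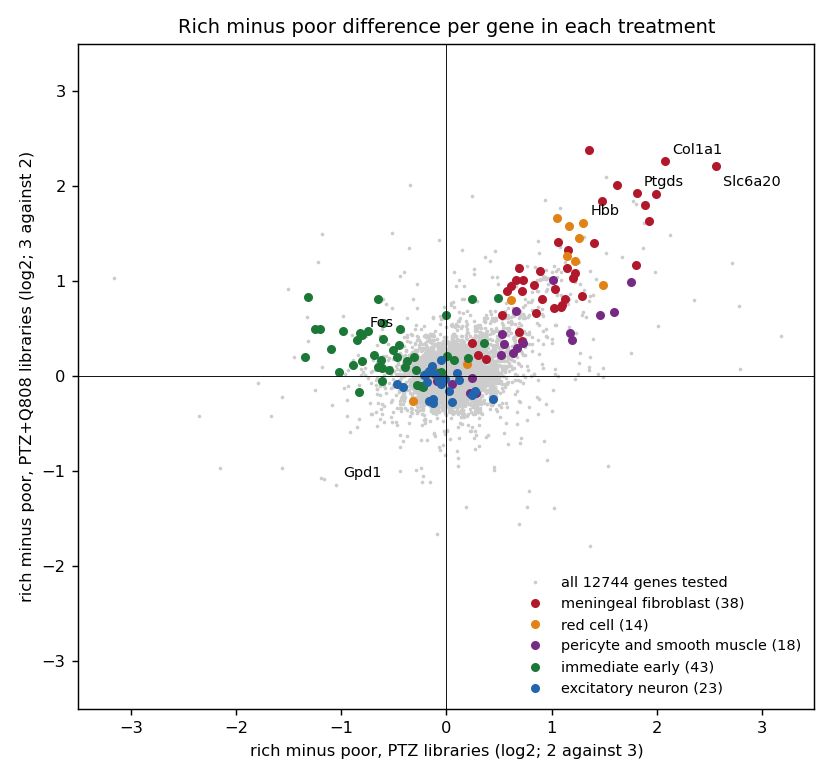
Rich minus poor difference of mean log2(FPKM + 1) for each of 12744 genes in the PTZ libraries (horizontal; 2 against 3) and in the PTZ+Q808 libraries (vertical; 3 against 2), with 5 gene lists in colour. All 38 fibroblast genes lie above 0 on both axes, and most immediate early genes lie to the left of 0 in PTZ and above 0 in PTZ+Q808.

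Fibrillar collagens were among the genes with large differences. Col1a1, the first chain of type I collagen, had 28.5, 18, 20.9, 16.1 and 19.3 FPKM in PTZ-1, PTZ-2, Q808-1, Q808-2 and Q808-3, and 6.9, 5.6, 2.38, 2.5 and 3.71 FPKM in PTZ-3, PTZ-4, PTZ-5, Q808-4 and Q808-5. Every rich library was above every poor one and above the controls (5.64 to 6.87 FPKM), and the log2 difference was 2.18 ± 0.225 (SE; 5 rich and 5 poor libraries). Col3a1 differed by 1.84 and Col1a2 by 1.87 ± 0.445 on the log2 scale, the last not past the threshold. These chains helped to set the split, so their size is circular.

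Some collagens outside the fibrillar types were also higher. Of all 26 collagen chains tested (of 40 listed), fibrillar chains included, 24 were higher and 2 lower on the rich side. The threshold was passed by 6, among them the fibrillar chains Col1a1 and Col3a1. The median log2 difference was 0.44, against 0.01 over all genes. Col6a2, of the beaded filament collagen around cells, had mean levels of 6.44 FPKM on the rich and 2.2 FPKM on the poor side, a log2 difference of 1.24. Col18a1, a basement membrane collagen that carries endostatin, had 5.93 and 2.43 FPKM and differed by 1.01. Col4a1, the basement membrane chain common to all vessels, differed by 0.51, with 8.04 to 11.8 FPKM on the rich and 5.21 to 6.94 FPKM on the poor side. Chains at the low end included Col9a3, Col11a1 and Col11a2, at 0.05, 0.02 and 0.07, so the difference did not extend evenly over the family.

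Collagen-processing enzymes were split. Of 20 tested, 16 were higher and 4 lower, 2 passed the threshold and the median was 0.16. Pcolce, an extracellular enhancer of procollagen cleavage, had 9.47, 6.66, 7.39, 6.69 and 8.11 FPKM in the rich and 2.68, 3.25, 2.67, 2.37 and 3.57 FPKM in the poor libraries. The libraries of each side lay close together, and the log2 difference was 1.15 ± 0.116. Lox, lysyl oxidase, which crosslinks collagen and elastin, had mean levels of 1.4 and 0.477 FPKM and differed by 0.69. Lox, 1 of the 2 genes past the threshold, was below 1 FPKM in every library outside the rich side and was tested only through the rich libraries. Serpinh1, the collagen chaperone of the endoplasmic reticulum, differed by 0.58 without passing the threshold, with control values of 32.5 to 48.8 FPKM that spanned both sides. Ppib, a proline isomerase that all secretory cells use, and P4hb, a subunit of prolyl hydroxylase, differed by 0.00 and 0.10.

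Proteoglycans and glycoproteins of the matrix were higher on the rich side. All 26 tested (of 37 listed) had a log2 difference above 0, 9 passed the threshold, and the median difference was 0.57; over all genes, 54.1% had a difference above 0. Of the 26, 3 reached 1 FPKM in fewer than 4 libraries outside the rich side, so the filter favoured them. Bgn, biglycan, had 34.4, 23.9, 24.1, 21.5 and 26.4 FPKM in the rich and 13.2, 11.7, 10.9, 10.3 and 12.1 FPKM in the poor libraries, with the controls at 13.1 to 16.4 FPKM. All poor libraries but PTZ-3 thus lay below every control, and every rich library lay above. Eln, elastin, differed by 1.54, with PTZ-1 highest at 16.2 FPKM and Q808-3 lowest of the rich side at 5.85 FPKM, above the highest poor library at 3.33 FPKM. Fbln1, fibulin 1, Lum, lumican, Nid2, a basement membrane linker, and Vtn, vitronectin, a plasma and pericyte protein, differed by 1.14, 0.97, 0.99 and 1.01. Sparc, a collagen-binding protein that brain endothelium and glia also make, differed by 0.29.

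Matrix proteases and their inhibitors moved less. Of 13 tested, 11 were higher and 2 lower, where 54.1% of all genes were higher. None passed the threshold, and the median was 0.25. Of the 13, 2 reached 1 FPKM in fewer than 4 libraries outside the rich side. Mmp14, a membrane-anchored collagenase, had 9.74 to 20.2 FPKM on the rich and 4.13 to 9.14 FPKM on the poor side, with controls at 5.04 to 12.6 FPKM. Timp1, an inhibitor of matrix proteases that injury raises in brain, had 5.12 to 11.1 and 2.42 to 6.81 FPKM, so the sides overlapped.

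Transporters of the arachnoid barrier held the largest difference. Slc6a20, a carrier of proline and other imino acids, had 43.2, 34.9, 28.9, 20.4 and 45.9 FPKM in the rich libraries and 6.33, 8.26, 3.52, 3.55 and 8.84 FPKM in the poor libraries. The controls, at 6.51 to 10.8 FPKM, overlapped the poor side only, and the log2 difference was 2.39 ± 0.281. Slc22a6, an organic anion transporter, had 5.47 to 11.2 FPKM on the rich and 0.561 to 2.14 FPKM on the poor side, a difference of 1.95. Slc6a13, a carrier of GABA and taurine in the leptomeninges, differed by 1.79, and Slc47a1, which exports organic cations, by 1.23. Over the list of 14 tested, 13 were higher and 1 lower, 5 passed the threshold and the median was 0.89. Slc7a11, the cystine and glutamate exchanger, was past the threshold at 0.70, with 9.51 to 13.9 FPKM against 6.56 to 8.38 FPKM. Slc38a2, an amino acid carrier found in most cells, was the member with a difference below 0, at −0.09 on the log2 scale.

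Secreted signals of the meninges showed the same direction, on a list that shares Igf2, Igfbp2 and Crabp2 with the fibroblast list. Of 22 genes for retinoic acid, BMP, Wnt and insulin-like growth factor signalling, 21 were higher and 1 lower on the rich side, 7 passed and the median was 0.67. Aldh1a2, the enzyme that makes retinoic acid in meninges, had 21, 9.11, 14.1, 11.9 and 15.7 FPKM in the rich and 3.83, 6.69, 2.06, 1.47 and 4.47 FPKM in the poor libraries. No poor library reached the lowest rich one, and the log2 difference was 1.82. Crabp2, which carries retinoic acid to the nucleus, and Rbp4, which carries retinol in plasma, differed by 1.40 and 0.96. Bmp6 and Wnt6, secreted ligands of their families, differed by 1.07 and 1.09. Wnt6 was below 1 FPKM in all 5 poor libraries and had a mean of 0.423 FPKM in the controls. It was therefore tested only through the rich libraries. Igf2, the growth factor of meninges and choroid plexus, differed by 1.25 with overlapping sides. Cxcl12, the chemokine that meninges and many brain cells make, differed by 0.04.

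Genes named by size of difference included several outside the lists for matrix, signals and transport. Ptgds, prostaglandin D synthase, the abundant secreted protein of leptomeninges, had 2540, 1590, 2040, 1810 and 2720 FPKM in the rich and 634, 689, 433, 421 and 755 FPKM in the poor libraries. With 636 to 981 FPKM in the controls, it was the most abundant gene among the 15 with the largest differences, and it differed by 1.87 ± 0.208. Ccl19, a chemokine of lymphoid tissue and barriers, C7, a complement component, Cpz, a secreted carboxypeptidase, and Coch, cochlin, an extracellular matrix protein, differed by 1.81, 1.61, 1.81 and 1.81. Gjb2, connexin 26, a gap junction protein of leptomeninges and some astrocytes, differed by 1.75, from 7.55 to 18.9 FPKM against 1.8 to 3.75 FPKM. Ranbp3l and Islr, each past the threshold with no overlap, differed by 1.66 and 1.49.

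The rich libraries were not alike. PTZ-1 held the highest value of the rich side for 23 of the 38 fibroblast genes tested and Q808-3 for 12, while PTZ-2 held the lowest for 17 and Q808-2 for 14. Globins ran the other way in 1 library: Q808-2, low among the rich side on fibroblast genes, had the highest globin sum, 4450 FPKM. The median difference of the 38 was 1.07 in PTZ and 1.02 in PTZ+Q808; fibroblast transcripts set the split in both treatments, so these medians restate it. Of the 38, 5 reached 1 FPKM in fewer than 4 libraries outside the rich side. The 5 listed fibroblast genes that did not pass the filter on low values were Foxd1, Mfap4, Mfap5, Slc6a12 and Ngfr.

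Among red cell genes, globins were higher on the rich side, while 5 of the 14 tested genes were lower. Hbb had 1000, 658, 905, 1210 and 741 FPKM in the rich and 425, 298, 281, 476 and 192 FPKM in the poor libraries, a log2 difference of 1.46 ± 0.253. Hba1, Hba2, Hba-a1 and Hbb-b1 differed by 1.38, 1.36, 1.21 and 1.36. Alas2, the first enzyme of heme synthesis in red cell precursors, had 4.72 to 10 FPKM and 1.36 to 3.75 FPKM, a difference of 1.22. Bpgm, which makes the 2,3-bisphosphoglycerate of red cells and is also expressed in brain, differed by −0.05. Over the 14 tested of 25 listed, 9 were higher and 5 lower, with a median of 0.96 and a lowest difference of −0.29. In 7 members every rich library lay above every poor one, against 1.98% of all genes. Red cell transcripts helped to set the split, so that count is circular. In 1 member every rich library lay below every poor one, against 0.369% of all genes.

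Some genes of the vessel wall were higher on the rich side, among them those of smooth muscle. Acta2, smooth muscle actin, had 40.5, 30.4, 23.4, 17.7 and 24.8 FPKM in the rich and 10.3, 11, 7.89, 6.67 and 16 FPKM in the poor libraries. The controls had 7.13 to 10.9 FPKM, and the log2 difference was 1.38 ± 0.234. Tagln, transgelin, and Myh11, smooth muscle myosin, differed by 1.13 and 1.06, with Q808-2 on the rich side below Q808-5 on the poor side in both. Over 18 pericyte and smooth muscle genes, 16 were higher and 2 lower, 5 passed and the median was 0.49. The pericyte genes Rgs5 and Kcnj8 differed by 0.37 and 0.02.

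Over 25 endothelial genes, 23 were higher and 2 lower with a median of 0.24, and 1 passed the threshold. That gene was Vwf, von Willebrand factor, richer in larger vessels, which had 5.02 to 9.84 FPKM on the rich and 2.69 to 4.97 FPKM on the poor side and differed by 1.01. Cldn5, the tight junction claudin of the barrier, and Slc2a1, its glucose transporter, differed by 0.26 and −0.06. Mfsd2a, the lipid transporter of brain capillaries, had the lowest difference of the list at −0.45.

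Genes of the macrophages at the brain's borders were higher on the rich side where they could be tested. All 8 tested (of 16 listed) were higher, 4 passed the threshold, and the median was 0.80. Of those 4, Mrc1, F13a1 and Stab1 were below 1 FPKM in every library outside the rich side, so they were tested only through the libraries where they were high, while Dab2 did not depend on them. Mrc1, the mannose receptor CD206, had 2.04, 1.56, 1.9, 1.48 and 2.48 FPKM in the rich and 0.635, 0.731, 0.425, 0.575 and 0.59 FPKM in the poor libraries. The controls, at 0.873 to 0.941 FPKM, lay between the sides. Stab1, a scavenger receptor, F13a1, a clotting factor subunit of these macrophages, and Dab2, an endocytic adaptor, differed by 0.79, 0.73 and 1.13.

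Of 19 microglial genes, 7 were higher and 12 lower on the rich side, with a median of −0.02. Csf1r, the receptor on which microglia depend, had 21.5 to 30.1 FPKM on the rich and 22.4 to 28.3 FPKM on the poor side, a difference of 0.00. Tmem119 and Selplg differed by −0.45 and −0.31, and Ctss, cathepsin S, by −0.30. Olfml3 alone passed the threshold, at 1.05, with 5.2 to 7.76 FPKM against 1.88 to 3 FPKM; it is secreted and is also made outside microglia. Leukocyte genes were mixed, 7 higher and 4 lower of 11 tested. Of the 11, 2 reached 1 FPKM in fewer than 4 libraries outside the rich side. RT1-Da, a class II histocompatibility chain, had 4.48 to 11.8 FPKM and 1.31 to 3.93 FPKM, and Cd74, its invariant chain, differed by 0.94 with overlap.

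**Figure D3:**
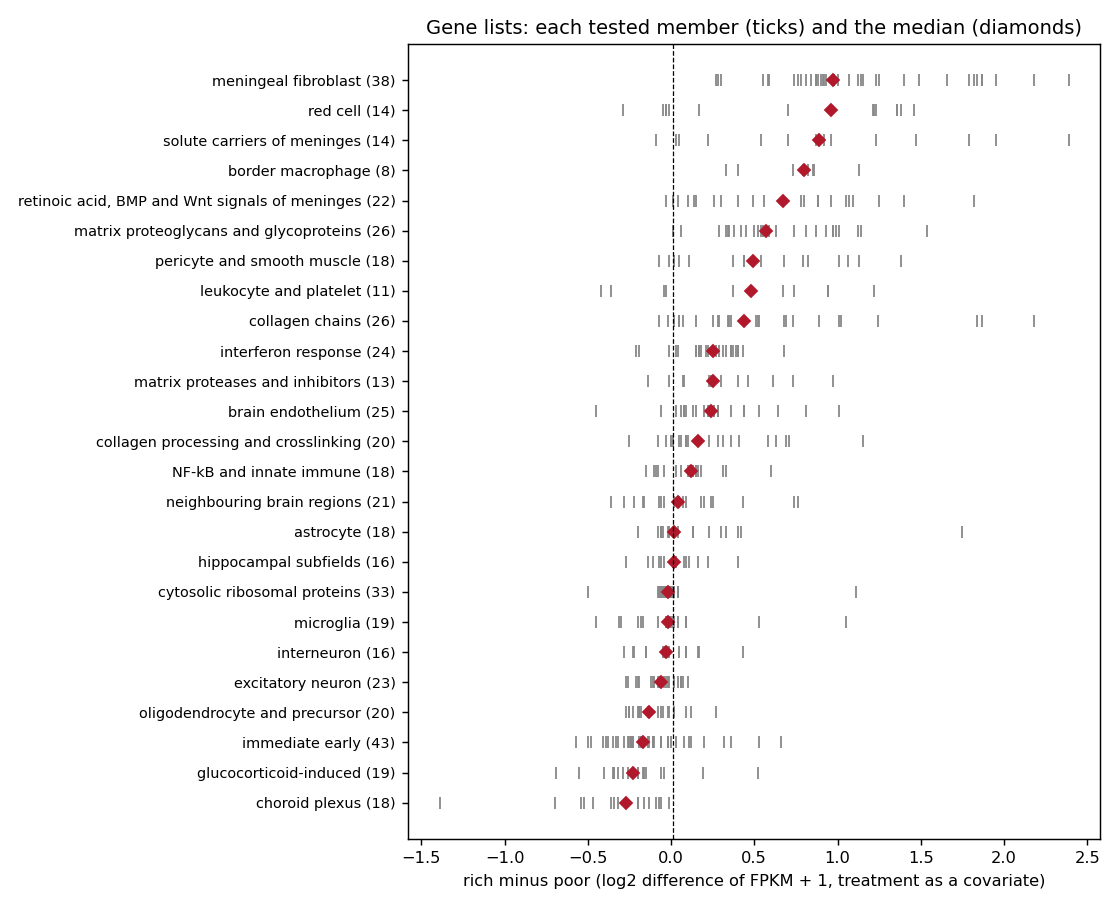
Rich minus poor log2 difference of every tested gene (ticks) in 25 lists with 5 or more tested genes, with the median of each list (diamonds); the dashed line is the median of all 12744 genes, 0.01. Fibroblast, red cell, transporter and border macrophage lists have medians of 0.80 to 0.97, and neuronal and glial lists have medians between −0.13 and 0.02.

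Neurons and glia differed little between the sides. Over 23 excitatory neuron genes, 6 were higher and 17 lower, the median was −0.06, and the differences ran from −0.27 to 0.10. Slc17a7, the vesicular glutamate transporter of these neurons, had 569 to 780 FPKM in the rich and 747 to 821 FPKM in the poor libraries. PTZ-2 reached above PTZ-3, so the sides overlapped, and the difference was −0.20. Camk2a, the kinase of excitatory synapses, and Nrgn, neurogranin, differed by 0.04 and −0.10. Interneuron genes had a median of −0.03, with Gad1, which makes GABA, at −0.04 and Sst, somatostatin, at −0.28. Hippocampal subfield genes had a median of 0.02, with Wfs1, a CA1 marker, at 0.02.

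Astrocyte genes had a median of 0.02, and 9 of 18 were higher. The 1 member past the threshold was Gjb2, given above with the leptomeninges, at 1.75. Gfap, the intermediate filament, differed by −0.06 and Aqp4, the water channel of end-feet, by 0.30, both short of the threshold. Among oligodendrocyte genes 4 were higher and 16 lower, with a median of −0.13. Mbp, a protein of compact myelin, differed by −0.20, and its ranges overlapped. None of the tested genes on the neuron and oligodendrocyte lists passed the threshold in either direction. Hapln2, described below with the genes lower on the rich side, is on none of these lists. Ribosomal protein genes had a median of −0.02 over 33 tested.

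Choroid plexus, the other tissue that can come with a hippocampal dissection, was lower on the log2 scale and uneven. All 18 genes tested had a log2 difference below 0, with a median of −0.27, none passed the threshold, and 10 were lower in both treatments. Mean FPKM did not follow throughout: it was 20 on the rich and 19 on the poor side for Clic6, an intracellular channel protein, and 14.6 and 13.4 for Kl, klotho. Ttr, transthyretin, its main product, had 113 FPKM in PTZ-2 and 329 FPKM in Q808-1 on the rich side, while the other 8 exposed libraries had 1320 to 6820 FPKM. The direction rested on single libraries: the median of the list was 0.3 without PTZ-2, 0.06 without Q808-1 and 0.08 without Q808-4. Pituitary transcripts were high in 1 library: Prl, prolactin, and Gh1, growth hormone, had 395 and 206 FPKM in Q808-3 and at most 0.898 and 8.52 FPKM in the other exposed libraries.

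**Figure D4:**
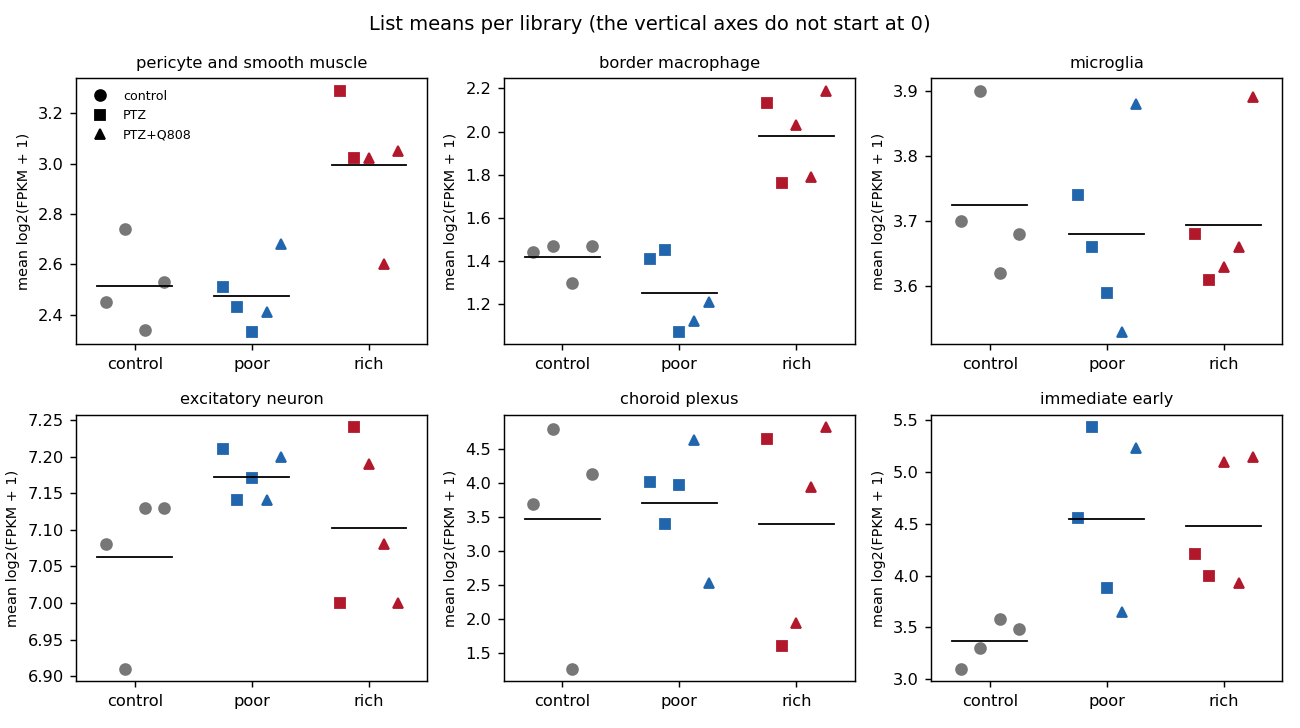
Mean log2(FPKM + 1) of 6 gene lists in each library by side, with treatment as the symbol and the mean of a side as the line; the vertical axes do not start at 0. Rich libraries are highest for border macrophage genes, while microglial, excitatory neuron, choroid plexus and immediate early means overlap between the sides.

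Past the threshold, 2 genes were lower on the rich side. That count was 0 without PTZ-1, Q808-1 or Q808-3, 1 without Q808-4, 5 without PTZ-3 or Q808-2, and 18 with library weights. Gpd1, the cytosolic glycerol-3-phosphate dehydrogenase, which links glycolysis to lipid synthesis, had 43.5, 43.7, 38, 50.2 and 36.3 FPKM in the rich and 75.5, 69.3, 144, 99.1 and 85.4 FPKM in the poor libraries. The controls, at 37.5 to 76.5 FPKM, overlapped both sides, and the log2 difference was −1.09 ± 0.183. Hapln2, a link protein of the matrix at nodes of Ranvier, had 9.84 to 11.8 FPKM on the rich, 13.5 to 18.8 FPKM on the poor side and 14.1 to 23.2 FPKM in the controls. Its difference was −0.48 ± 0.091, and it was the rich side that lay apart from the controls. Crh, corticotropin-releasing hormone, Pip5k1a, a phosphoinositide kinase, and Alb, albumin, were next by p and did not pass, at −0.56, −0.24 and −0.64. Alb, the plasma carrier protein, was thus lower where globins were higher: 1.73 to 2.8 FPKM on the rich and 2.69 to 5.9 FPKM on the poor side, with overlap.

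Genes that glucocorticoids induce leaned to the poor side. Of 19 tested, 2 were higher and 17 lower on the rich side, with a median of −0.23, and none passed the threshold. The median was −0.35 within PTZ and −0.1 within PTZ+Q808. The list means overlapped, at 3.94 to 4.2 in the rich and 4.08 to 4.41 in the poor libraries. Sgk1, the serum and glucocorticoid-regulated kinase, had 42.8, 42, 51.2, 59 and 54 FPKM in the rich and 54.8, 78.5, 108, 71 and 88.9 FPKM in the poor libraries. Q808-2 exceeded PTZ-3, so the sides met, and the difference was −0.69. Pdk4, a brake on pyruvate dehydrogenase in fasting and stress, and Tsc22d3, the glucocorticoid-induced leucine zipper, differed by −0.55 and −0.34. The library PTZ-5 had the highest level of Gpd1, Sgk1 and Pdk4 (10.8 FPKM). Interferon-response genes leaned the other way, 21 of 24 higher with a median of 0.25 and none past the threshold. That median was 0.09 without PTZ-1 and 0.12 without Q808-3, and PTZ-2 and Q808-2 lay within the poor range of the list mean.

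Immediate early genes, which neurons switch on within minutes of strong firing, did not follow the split. Of 43 tested, 9 were higher and 34 lower on the rich side with a median of −0.17, but the median was −0.60 within PTZ and 0.20 within PTZ+Q808. The median over both treatments changed sign, to 0.07 without PTZ-4 and to 0.09 without Q808-5. Fos, a subunit of AP-1, had 62.8, 43.2, 127, 38.2 and 126 FPKM in the rich and 113, 175, 38.8, 27 and 142 FPKM in the poor libraries. Each side thus held libraries at the low and at the high end. Npas4, a transcription factor that depends on neuronal calcium, had 15.6 to 61.6 FPKM on the rich and 6.64 to 62.4 FPKM on the poor side. Bdnf, the neurotrophin, was at 14.5 to 22.2 FPKM in Q808-1, Q808-3, PTZ-4 and Q808-5 and at 4.56 to 5.74 FPKM in the other 6 exposed libraries, 2 high libraries on each side.

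The response to PTZ exposure, with or without Q808, was then measured on each side against the 4 controls. The controls did not enter the split, but both comparisons share them, so their values stand side by side and their likeness is not read as support. Against control, 8 genes rose in the poor libraries (0.0628% of 12744) and none fell by limma with Benjamini-Hochberg adjustment, while 1848 (14.5%) had an unadjusted p under 0.05. In the rich libraries 139 rose and 16 fell (1.09% and 0.126%), and 2064 (16.2%) had an unadjusted p under 0.05. Of the 139, 19 were in the fibroblast or red cell lists and 87 in no list; in 79 every rich library also lay above every poor one. Because those libraries were picked as the high ones, the rise of such genes against control is also a description.

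Apold1, an endothelial early-response gene, had 34.4, 31.5, 38.6, 24.5 and 29.1 FPKM in the rich and 44.3, 46.7, 16.8, 18.7 and 35.8 FPKM in the poor libraries. The controls had 3.07 to 6.78 FPKM, below all 10. It rose by 2.34 ± 0.287 in the poor (adjusted p = 0.00941 by limma) and by 2.45 ± 0.287 in the rich libraries (adjusted p = 0.00293). Cyr61, a secreted matrix-bound early gene, rose by 2.23 ± 0.359 (adjusted p = 0.0447) and 2.55 ± 0.359 (adjusted p = 0.00535), from 0.983 to 2.01 FPKM in controls to 6.44 to 28.5 FPKM in the exposed libraries. Zfp36, which destabilises inflammatory mRNAs, rose by 1.20 and 1.18 (adjusted p = 0.0355 and 0.00848). Nfkbia, the inhibitor of NF-kB, rose by 1.00 and 0.85 (adjusted p = 0.0134 and 0.00848). Between the sides these genes differed by 0.11, 0.32, −0.02 and −0.15, none past the threshold.

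Rock2, a kinase acting on the cytoskeleton, rose by 0.41 in the poor and by 0.43 in the rich libraries (adjusted p = 0.0447 and 0.00848). Between the sides it differed by 0.01. Sgk1 rose in the poor libraries by 1.36 (adjusted p = 0.0447), and in the rich ones its value was 0.67 (adjusted p = 0.154). Lfng, which adds sugars to Notch receptors, rose in the poor libraries by 0.64 (adjusted p = 0.00941), and in the rich ones its value was 0.32 (adjusted p = 0.0614). The difference between the sides, −0.69 and −0.33, did not pass the threshold for either gene. That these genes passed on 1 side only is therefore not shown to be a difference between the sides.

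Among genes lower than control, Sox9, a transcription factor of astrocytes and progenitors, fell by 0.80 in the rich libraries (adjusted p = 0.0139) and had −0.74 in the poor ones (adjusted p = 0.11). It had 3.36 to 4.74 FPKM on the rich, 2.86 to 5.11 FPKM on the poor side and 6.72 to 8.3 FPKM in the controls, below which all 10 exposed libraries lay. Hhex, a homeobox gene of endothelium and microglia, fell by 0.51 in the rich libraries (adjusted p = 0.0421), and Slc25a1, the mitochondrial citrate carrier, fell by 0.31 (adjusted p = 0.0253). Hhex lost the threshold in 15 of 25 alternatives, Slc25a1 in 9 of 26 and Sox9 in 3 of 26. Fos, Npas4 and Atf3, a stress-induced factor, differed from control by 2.26, 2.51 and 2.60 in the poor and 2.08, 2.60 and 2.46 in the rich libraries, and none passed (adjusted p from 0.0576 to 0.205). Over the 43 immediate early genes the median difference from control was 1.01 on the poor and 0.95 on the rich side. The medians over all genes were −0.03 and −0.01. Of the 43, 3 and 6 rose past the threshold, against 0.0628% and 1.09% of all genes.

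**Figure D5:**
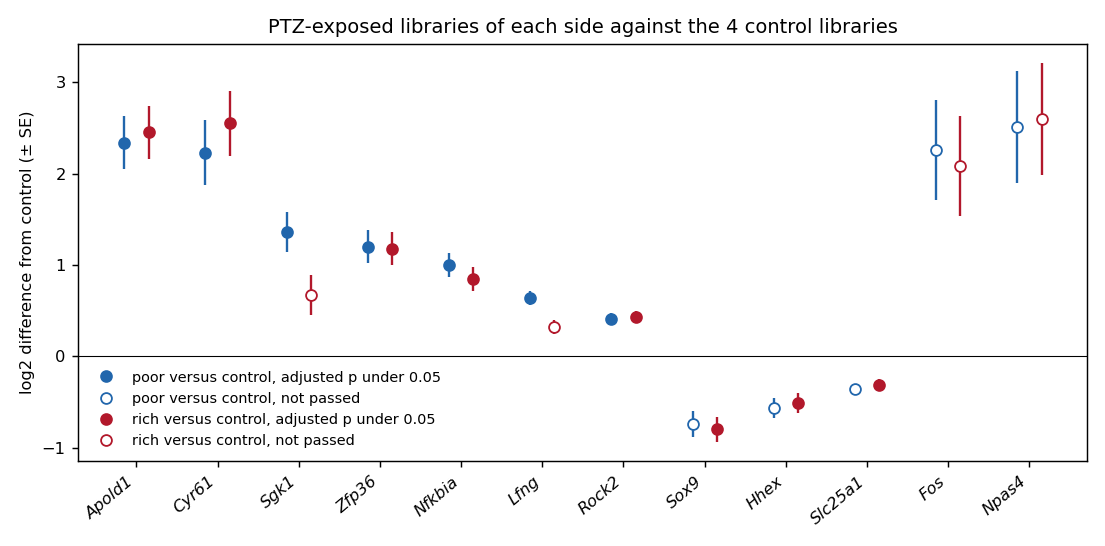
Log2 difference from the 4 controls (± SE) of 12 genes in the 5 poor (blue) and the 5 rich (red) exposed libraries; filled points have an adjusted p under 0.05 by limma. Apold1, Cyr61, Zfp36, Nfkbia and Rock2 pass on both sides, Sgk1 and Lfng in the poor libraries, and Sox9, Hhex and Slc25a1 in the rich ones.

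These counts rested on single libraries. The 8 genes of the poor comparison became 0 without Q808-5 and 72 without Q808-4; each of the 8 lost the threshold in 4 (Apold1 and Lfng) to 19 (Sgk1 and Rock2) of 26 alternatives. The 155 of the rich comparison became 60 without control replicate 1 and 378 without Q808-2, and without the 3 libraries low in Ttr it was 20, none of them lower than control.

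Q808 was then compared with PTZ alone, with the side as a covariate, to ask whether the mixed sides had hidden an effect. By limma, 0 of 12744 genes passed (0%), with the smallest adjusted p at 0.647 and 623 genes (4.89%) at an unadjusted p under 0.05. Without the term for the side the count was also 0. Col3a1 had a difference (PTZ+Q808 minus PTZ) of −0.17 with the side term and 0.19 without it, and Ptgds 0.04 (adjusted p = 0.931 and 0.985 with the term). Prtn3, a neutrophil protease, had the smallest p, with PTZ+Q808 minus PTZ at 0.85, and Selenbp1, a selenium-binding protein, had −0.82 (adjusted p = 0.904). Zrsr2, a splicing factor, had 0.29 (adjusted p = 0.904).

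Whether the Q808 effect differed between the sides was tested as an interaction, and 0 of 12744 genes passed (0%), with 371 (2.91%) at an unadjusted p under 0.05. Eif3h, a subunit of a translation initiation factor, had the smallest adjusted p, 0.188, with a difference of effects (rich minus poor) of −2.41. Its levels were 30.1 and 56.2 FPKM in the rich PTZ libraries, 17.3 to 21.7 FPKM in the poor PTZ libraries, 17.3 to 18.9 FPKM in the rich PTZ+Q808 libraries and 46.7 and 52.1 FPKM in the poor ones. The controls ran from 14.9 to 40.4 FPKM.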

How the data were processed

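The authors deposited 1 FPKM table per library, each with 22601 genes, per the file headers. Tools listed in the submitters' processing notes, with neither role nor version, are HISAT2 and Bowtie2 (aligners), StringTie, Cufflinks, HTSeq, DESeq, SAMtools and Trimmomatic, and the genome build is not given in the sources used here. Whole counts were not recovered, so depth is known only as a relative number of fragments between libraries, and no counting interval is given.

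Genes with at least 1 FPKM in at least 4 of 14 libraries were kept (12744). FPKM values were taken as log2(FPKM + 1) and fitted with limma 3.58.1 (R 4.3.3), with a prior variance that depends on the mean, two-sided tests and Benjamini-Hochberg adjustment over all genes tested; a fold change on this scale understates that of low genes. The split was fitted on the 10 exposed libraries with treatment as a covariate. The 2 comparisons with control used all 14 libraries. The fit was tested on simulated data. In 12 rows a symbol damaged into a date was read by its gene identifier, and 20633 identifiers matched the RefSeq gene table. Promoters came from RefSeq (GRCr8), which held 10234 of the tested genes.

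The members and the gene lists were chosen with earlier results of these data known. Named genes were, per comparison, up to 15 in each direction by size among those past the threshold with no overlap and a mean of at least 1 FPKM, or the 5 with the smallest p where fewer than 5 passed; per list, up to 6 with the highest level and 6 with the smallest p; and a short set of markers. Outside that rule, Alas2, Bdnf, Col11a1, Col11a2, Kcnj8, Pdk4, Tsc22d3 and the fibroblast genes not tested were chosen after their values were seen. Some genes that the rule names are not reported here. The design text gives 4, 5 and 5 rats, as many as there are libraries, and the p-values measure only the spread between these libraries. Over all genes tested, same-numbered libraries of different groups did not deviate together. The correlations of their deviations from the group means ran from -0.28 to 0.143, with 2 of 13 pairs over 0.1. These correlations cannot separate number from side.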

Additional observations from a re-analysis of the deposited data

Results flagged for a closer look

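Single libraries that stood apart from the rest of their side or of the controls were sought in 444 groups of 4 or 5 libraries, by the gap to the nearest library relative to the whole range, and 22 were found. Were the groups independent, chance alone would give about 1 in 20, or 22. These groups share libraries and genes, so no pattern is read from their number. That number does not bear on the size of a single value.

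On the rich side, Dcn was low in PTZ-2 at 22.4 FPKM and Ppib high in Q808-2 at 154 FPKM. Q808-3 had Prl at 395 FPKM, the pituitary list at a mean log2(FPKM + 1) of 5.16, the microglia list at 3.89 and the Y-linked list at 0.26, where the other 4 rich libraries had 3.69 to 4.12; of that list, Kdm5d was at 0.0395 FPKM. On the poor side, PTZ-5 was low for Bmp6 (4.59 FPKM), RT1-Da (1.31 FPKM) and the leukocyte and platelet list (mean log2 1.13). Slc47a1 was high in PTZ-3 at 1.01 FPKM, Crabp2 in PTZ-4 at 2.49 FPKM and Tagln in Q808-5 at 27.5 FPKM. Pip5k1a was low in Q808-4 at 26.9 FPKM.

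Among the controls, replicate 2 had Slc17a7 at 524 FPKM against 807 to 810 FPKM in the others, Mfsd2a at 13.5 FPKM, and the list of genes of neighbouring brain regions at a mean log2 of 4.33 against 2.78 to 2.85. Control replicate 3 had Ttr at 54.5 FPKM, Dcn at 18.3 FPKM and Alb at 2.9 FPKM. Control replicate 4 had Prl at 0.444 FPKM, where the others were listed at 0, and the solute carrier list at a mean log2 of 2.96.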

How the results depend on the processing

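The rich minus poor count of 124 was 62 with a minimum of 5 FPKM, 233 with a weight per library, 133 with a Y-linked term (101 of the 124 among them), 78 without the 3 libraries low in Ttr (an alternative chosen after seeing the data) and 62 to 169 with 1 library left out. With the replicate block it was 1, none of the 124, since only replicate 3 differs in side under that block. The interaction count of 0 was 3 with no filter, 5 without the libraries low in Ttr and 0 to 6 with 1 library left out (6 without PTZ-2, 4 without Q808-4, 3 without PTZ-1, 1 without Q808-5). The poor comparison with control, 8 genes, gave 5 by quantile normalization, 5 with a robust prior, 526 with library weights, 0 with the replicate block, 4 with a Y-linked term, 1 without the libraries low in Ttr, 4 with only its PTZ libraries and 0 to 72 with 1 library left out (5 or fewer without any 1 control, PTZ-4, PTZ-5, Q808-1, Q808-2, Q808-3 or Q808-5). The rich comparison, 155 genes, gave 91 at 5 FPKM, 717 with library weights, 71 with the replicate block, 394 with a Y-linked term, 20 without the libraries low in Ttr, 27 with only its PTZ libraries and 60 to 378 with 1 library left out (77 without control 3, 89 without control 4, 85 without Q808-1, 82 without Q808-3). PTZ+Q808 against PTZ stayed at 0 in every alternative. With a pseudocount of 0.1, which weighs low genes more, list medians became 1.25 for fibroblast, 1.16 for red cell, 0.79 for proteoglycan, 0.44 for protease, 1.26 for border macrophage and 0.94 for leukocyte genes. With 1 library left out, the protease median ran from 0.24 to 0.45, the interferon median from 0.09 to 0.37 and the glucocorticoid median from -0.37 to -0.16. The causes were not tested.

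The numbers are not shown to pair the libraries: 0 of 14 correlated best with its own number. No named gene reversed a called direction. The uncalled PTZ+Q808 minus PTZ difference of Col3a1, -0.17, was 0.19 with no side term and 0.10 with library weights. That of Ptgds, 0.04, was -0.01 with the replicate block, -0.01 with a Y-linked term, -0.09 without the libraries low in Ttr and -0.11 to 0.21 with 1 library left out. Depth as fragments is unknown, so genes near 1 FPKM carry the least certain values.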
